A study of Mus musculus with 15 samples.

Results

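Clade B serpins are the intracellular branch of the serpin superfamily of protease inhibitors, and 7 of them were followed here across 5 mononuclear phagocyte populations of the small intestine. The genes were *Serpinb1a*, *Serpinb2*, *Serpinb6a*, *Serpinb6b*, *Serpinb8*, *Serpinb9* and *Serpinb9b*, taken by name from the 19938 genes measured. Each was represented by its single-symbol probeset with the highest mean signal, and each had 1 such probeset. All samples came from the lamina propria (LP) of unmanipulated wild-type (WT) C57BL/6 mice, which the study used at 6 to 12 weeks of age and of both sexes, with 3 arrays per population. The 4 dendritic cell (DC) subsets were sorted as CD11c+MHCII+CD64- cells and split by the integrin chains CD103 and CD11b, which gave CD103+CD11b+ and CD103+CD11b- subsets as well as CD103-CD11b+ and CD103-CD11b- subsets. The subsets are named below by these markers. Macrophages (mϕ) were sorted as CD64+CD11b+MHCII+Ly6C- cells. No population carried a transgene or had been treated. Nothing states how many mice gave each sample, so the p-values below measure the spread between these samples.

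Serpins present a reactive centre loop as bait, and the protease that cleaves it becomes trapped in a covalent complex. The clade B members lack a classical secretion signal and mostly act inside the cell, where they intercept granzymes, neutrophil serine proteases or lysosomal proteases that reach the cytosol. In DCs, *Serpinb9* is best known as the inhibitor of granzyme B, the main death-inducing protease of cytotoxic lymphocytes.

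*Serpinb6b* and *Serpinb9* were higher in both CD103+ DC subsets than in both CD103- DC subsets, and had their lowest means in mϕ. *Serpinb8* had the opposite extreme: it was 2.24 to 3.74 log2 units higher in mϕ than in each DC subset, and among the 3 DC subsets compared most closely it was highest in CD103+CD11b- cells. *Serpinb1a* was 1.38 to 2.38 log2 units lower in mϕ than in each DC subset. *Serpinb2*, *Serpinb6a* and *Serpinb9b* passed the test in limma in none of the 10 comparisons between populations, although their unadjusted p was under 0.05 in 4, 5 and 1 of them. A gene passed, here and below, at a Benjamini-Hochberg adjusted p under 0.01 over all 19938 genes in limma together with a log2 difference over 1.

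The levels are log2 signals after quantile normalization, so a difference of 1 is a doubling of signal, and levels of different genes cannot be set against each other because their probesets differ. The median gene had a log2 signal between 5.00 and 5.14 on the 15 arrays, and Pearson's r between replicate arrays, across genes that are not independent replicates, lay between 0.978 and 0.995. *Itgae*, which encodes CD103, ranged from 10.24 to 10.96 on the arrays of CD103+ DCs and from 7.54 to 8.96 on those of CD103- DCs, and *Fcgr1*, which encodes CD64, from 8.69 to 9.08 in mϕ and from 3.69 to 5.02 in DCs. RNA of other cells was also measured. The mean of 13 pancreatic acinar genes ran from 4.77 to 8.60 over the arrays and differed most within populations, and that of 22 epithelial genes ran from 6.21 to 7.58. In CD103-CD11b- cells the mean of 10 B cell and plasma cell genes was 8.10 to 8.70, above every other array. The population means of 17 neutrophil and mast cell genes lay between 4.12 and 4.43, and those of 15 T and NK cell genes in DCs between 4.60 and 4.80.

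**Figure D1:**
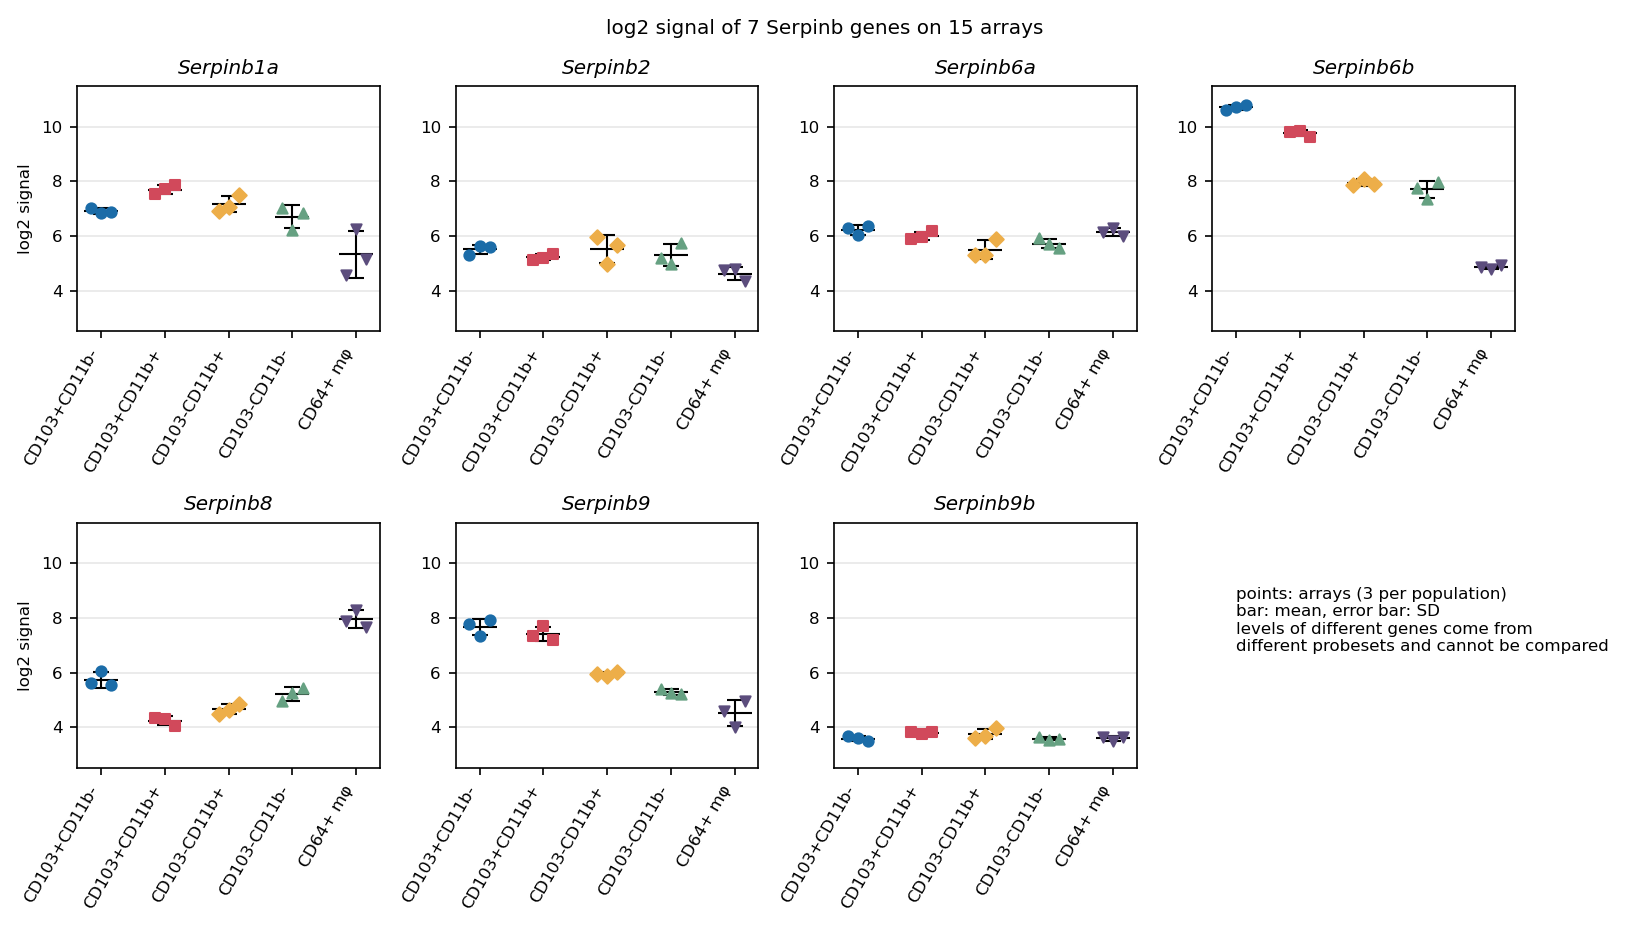
Log2 signal (vertical axes) of the 7 *Serpinb* genes in the 5 populations, with points for the 3 arrays of a population, a bar for their mean and an error bar for their SD. *Serpinb6b* steps down from 10.72 in CD103+CD11b- cells to 4.86 in CD64+ mϕ, *Serpinb8* stands highest in mϕ at 7.96, and *Serpinb9b* stays between 3.49 and 3.96 on every array.

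The granzyme inhibitors are given first. *Serpinb6b*, a paralogue of *Serpinb6a* whose product inhibits granzyme A, had log2 signals of 10.63, 10.73 and 10.80 on the 3 arrays of CD103+CD11b- cells and of 9.82, 9.87 and 9.64 in CD103+CD11b+ cells. It was at 7.88, 8.09 and 7.90 in CD103-CD11b+ cells and at 7.78, 7.36 and 8.0 in CD103-CD11b- cells. In mϕ it was at 4.87, 4.78 and 4.92, below the median gene of those arrays. The CD103+ subsets overlapped with no other population, the CD103- subsets overlapped with each other, and mϕ stood apart from all DCs. The range of the 5 population means, 5.86 log2 units, was larger than that of 99.9% of all genes. In bulk samples such as these, fewer cells that express a gene and less RNA per cell cannot be told apart.

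In CD103+CD11b+ cells, *Serpinb6b* was 1.82 log2 units higher than in CD103-CD11b+ cells (SE 0.09, adjusted p = 2.0e-05). It was lower in CD103-CD11b+ than in CD103+CD11b- cells (log2 difference -2.76, SE 0.09, adjusted p = 1.9e-08). Between the CD103+ subsets, the arrays did not overlap and the difference of -0.95 (95% confidence interval -1.15 to -0.74, adjusted p = 4.0e-05) lay just under the required size, which it passed at -1.01 once each array was centred on its median. Between the CD103- subsets the difference was -0.25 (95% confidence interval -0.53 to 0.04, adjusted p = 0.485). The CD103-CD11b- subset differed from the CD103+CD11b+ subset by -2.06 and from the CD103+CD11b- subset by -3.01. Macrophages were lower than the DC subsets by log2 differences between -5.86, against CD103+CD11b- cells, and -2.85, against CD103-CD11b- cells (highest adjusted p = 7.4e-10).

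*Serpinb9*, the granzyme B inhibitor, had log2 signals of 7.77, 7.35 and 7.92 in CD103+CD11b- cells and of 7.33, 7.71 and 7.21 in CD103+CD11b+ cells. It was at 5.95, 5.89 and 6.02 in CD103-CD11b+ cells, at 5.39, 5.25 and 5.20 in CD103-CD11b- cells and at 4.59, 4.0 and 4.96 in mϕ. The CD103+ subsets overlapped with each other and lay above the rest, while the 3 lower populations did not overlap. *Serpinb9* was 1.46 log2 units higher in CD103+CD11b+ than in CD103-CD11b+ cells (SE 0.16, adjusted p = 6.6e-04). The difference between the CD103+ subsets was -0.26 (95% confidence interval -0.61 to 0.08, adjusted p = 0.358). CD103-CD11b- cells differed from CD103+CD11b- cells by -2.40 and from CD103+CD11b+ cells by -2.14, and both differences passed. Their difference from CD103-CD11b+ cells, -0.68 (adjusted p = 0.101), and that of mϕ from CD103-CD11b- cells, -0.76 (adjusted p = 0.0133), did not pass although the arrays did not overlap.

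Between CD103+ and CD103- DCs, epithelial markers moved the same way as both genes. Their mean was 6.86 to 7.58 on the 6 arrays of CD103+ DCs and 6.21 to 6.91 on the 6 of CD103- DCs. In mϕ, where both genes had their lowest means, the epithelial mean was 6.28 to 7.56. The mϕ array with the highest epithelial mean, replicate 2, had *Serpinb6b* at 4.78 and *Serpinb9* at 4.0. Of the 22 markers, 1 passed between CD103+CD11b+ and CD103-CD11b+ cells, *Cdh1*, which encodes E-cadherin, with a log2 difference of 1.38. Of all genes, 0.231% were higher and 0.306% lower there. The median difference of the 22 markers was 0.74, beside -0.01 over all genes. In CD103-CD11b+ against CD103+CD11b- cells, 2 of the 22 were lower and 0 higher (all genes: 2.02% higher, 1.3% lower). The marker median was -0.73 there, beside 0.04 over all genes. The paper reports *Cdh1* and *Epcam* as genes expressed more highly by the CD103+CD11b+ DC subset itself. Both are in the marker list, so the marker mean does not stand for epithelial RNA alone. The part of epithelial RNA in the signals of *Serpinb6b* and *Serpinb9* was not tested.

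*Serpinb9b*, a close relative and neighbour of *Serpinb9*, had log2 signals between 3.49 and 3.96 on all 15 arrays. All its differences between populations lay between -0.22 and 0.21, and its lowest adjusted p over the 10 comparisons was 0.185. Only 37.0% of genes had a smaller range of population means. The granzymes themselves passed in no comparison: *Gzma* reached 6.81 and *Gzmb* 6.51 at most on any array, and *Gzmm* 4.93. In limma, 3 of these 3 had an unadjusted p under 0.05 in at least 1 comparison. The highest *Gzma* and *Gzmb* values were in CD103+CD11b- cells, with means of 5.76 ± 0.95 (SD, n = 3) and 5.60 ± 0.82. The mean of 15 T and NK cell genes, *Gzma* and *Gzmb* among them, was 4.33 to 4.94 there and 4.89 to 5.07 in mϕ. The part of T and NK cell RNA in the granzyme signals was not tested.

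*Serpinb6b*, *Serpinb9* and *Serpinb9b* follow one another on chromosome 13, so the sequences before their start sites are given here, with that of *Serpinb8* on chromosome 1 as the gene highest in mϕ. Each is the 250 bases upstream of the RefSeq start site in GRCm38.p6, plus strand, at chr13:32965011-32965260 for *Serpinb6b*, chr13:33004291-33004540 for *Serpinb9*, chr13:33027164-33027413 for *Serpinb9b* and chr1:107589756-107590005 for *Serpinb8*. Capitals mark matches to motifs searched on both strands. The interferon response core was searched as GAAA, any 2 bases and GAAA, the PU.1 and IRF composite as GGAA, any 2 bases and GAAA, and the BATF and IRF composite as TTTC, any 4 bases and TGA. The AP-1 site was searched as TGANTCA, the TATA box as TATAAA, the MITF and TFE E-box as CACGTG and the SMAD palindrome as GTCTAGAC.
Serpinb6b: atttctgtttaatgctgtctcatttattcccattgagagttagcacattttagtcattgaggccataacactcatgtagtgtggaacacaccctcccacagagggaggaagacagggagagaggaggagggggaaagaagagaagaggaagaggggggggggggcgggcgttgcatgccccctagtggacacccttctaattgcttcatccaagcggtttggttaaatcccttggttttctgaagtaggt
Serpinb9: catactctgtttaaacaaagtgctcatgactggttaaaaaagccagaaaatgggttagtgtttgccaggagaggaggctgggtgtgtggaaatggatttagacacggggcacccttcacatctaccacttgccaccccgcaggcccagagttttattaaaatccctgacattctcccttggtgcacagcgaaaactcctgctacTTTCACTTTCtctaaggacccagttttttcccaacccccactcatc
Serpinb9b: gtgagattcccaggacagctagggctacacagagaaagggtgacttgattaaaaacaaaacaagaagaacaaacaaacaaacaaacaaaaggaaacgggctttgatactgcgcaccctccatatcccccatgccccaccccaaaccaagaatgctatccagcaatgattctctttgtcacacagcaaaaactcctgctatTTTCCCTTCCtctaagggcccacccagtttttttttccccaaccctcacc
Serpinb8: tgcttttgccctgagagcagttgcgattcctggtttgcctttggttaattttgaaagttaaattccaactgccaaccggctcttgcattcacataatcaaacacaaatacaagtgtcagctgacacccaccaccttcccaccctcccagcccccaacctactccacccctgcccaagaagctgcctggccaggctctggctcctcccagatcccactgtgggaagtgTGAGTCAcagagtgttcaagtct

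The *Serpinb9* window held the interferon response core, reversed, at bases 205 to 214 of the 250, a motif found in 2.98% of 32851 RefSeq promoter windows of this length. At nearly the same place, bases 201 to 210, *Serpinb9b* held the PU.1 and IRF composite, also reversed, which 2.30% of windows hold. None of the 7 motifs was matched in the *Serpinb6b* window. *Serpinb8* held an AP-1 match at bases 228 to 234, a motif in 6.75% of windows. After alignment, *Serpinb9* and *Serpinb9b* were alike in 58.2% of aligned columns, against 45.3% for *Serpinb6b* and *Serpinb9*. Apart from *Serpinb9* and *Serpinb9b*, pairs of windows ran from 42.2% (*Serpinb6b* and *Serpinb9b*) to 51.7% (*Serpinb2* and *Serpinb6a*, on different chromosomes). The promoter table matched 6 of the 7 genes, all but *Serpinb1a*. The windows of *Serpinb2* held a TATA box and an AP-1 match and one of the windows of *Serpinb6a* an interferon response core. A match describes the letters and not a bound site.

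Of the inhibitors of neutrophil proteases, *Serpinb1a*, which acts on neutrophil elastase, cathepsin G and proteinase 3, had log2 signals of 7.53, 7.72 and 7.86 in CD103+CD11b+ cells and of 6.91, 7.08 and 7.49 in CD103-CD11b+ cells. It was at 7.04, 6.84 and 6.88 in CD103+CD11b- cells, at 7.04, 6.23 and 6.85 in CD103-CD11b- cells, and at 4.55, 6.27 and 5.15 in mϕ. CD103+CD11b+ cells lay above every other population, the other DC subsets overlapped, and mϕ replicate 2 overlapped with CD103-CD11b- cells. The difference of CD103+CD11b+ from CD103+CD11b- cells was 0.78 (95% confidence interval 0.47 to 1.10, adjusted p = 0.00313), short of the required size. That from CD103-CD11b+ cells was 0.54 (adjusted p = 0.0857).

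*Serpinb1a* was lower in mϕ than in CD103+CD11b+ cells by a log2 difference of -2.38 (SE 0.32, adjusted p = 6.0e-05), and the other 3 comparisons with mϕ also passed, at -1.83, -1.59 and -1.38. The smallest of these, against CD103-CD11b- cells, no longer passed without CD103-CD11b- replicate 1 (-1.21) or 3 (-1.31) or without mϕ replicate 1 (-0.99) or 3 (-1.29). Fitted on the arrays of the populations compared alone, the differences from CD103+CD11b-, CD103-CD11b+ and CD103-CD11b- cells kept their size and no longer passed. The mϕ replicate with the highest *Serpinb1a*, replicate 2, also had the highest epithelial and pancreatic means of its population, 7.56 and 6.85, against at most 6.34 and 4.86 in the other two, and the part of these cells in the *Serpinb1a* signal was not tested.

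*Serpinb6a*, an inhibitor of cathepsin G among others, had log2 signals of 6.28, 6.02 and 6.36 in CD103+CD11b- cells, 5.89, 5.95 and 6.17 in CD103+CD11b+ cells and 6.16, 6.28 and 5.99 in mϕ, and these 3 populations overlapped. It was at 5.91, 5.70 and 5.56 in CD103-CD11b- cells and at 5.31, 5.29 and 5.90 in CD103-CD11b+ cells. These subsets overlapped with each other and with CD103+CD11b+ cells. Its largest difference, -0.72 between CD103-CD11b+ and CD103+CD11b- cells (adjusted p = 0.0114), did not pass, and became -1.02 and passed when every population's most pancreas-rich array was left out. The population means of *Serpinb6a* spanned 0.72 log2 units, against 5.86 for those of its paralogue *Serpinb6b*. The genes whose pattern over the 15 arrays was most like that of *Serpinb6a* were *Glod5* (Pearson's r = 0.870), *Adh1* (0.857) and *Krt20* (0.854), a keratin of intestinal epithelium. The proteases these serpins are known for passed in no comparison: *Elane* stayed between 4.47 and 4.88, *Prtn3* between 4.15 and 5.11 and *Ctsg* between 3.40 and 3.79 on all arrays, with 1 of the 3 at an unadjusted p under 0.05 in any comparison (limma).

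**Figure D2:**
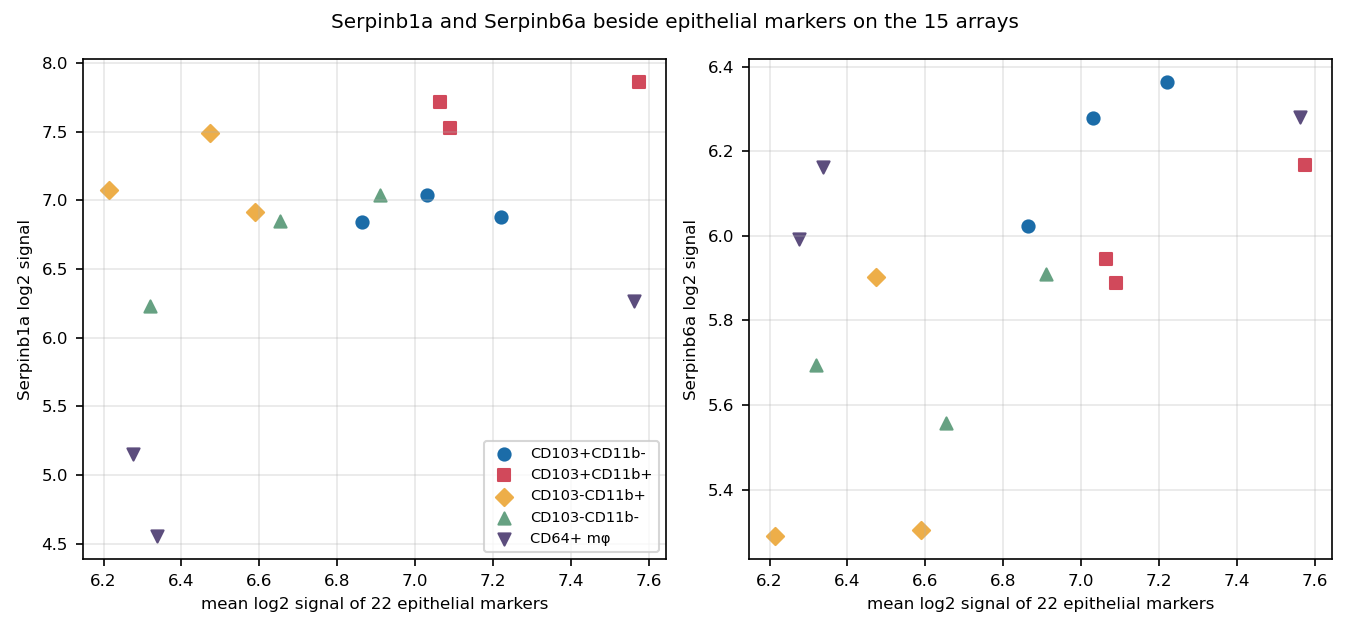
Log2 signal of *Serpinb1a* (left) and *Serpinb6a* (right) on each of the 15 arrays against the mean log2 signal of 22 epithelial markers on the same array, with 1 point per array. The mϕ array at an epithelial mean of 7.56 has the highest *Serpinb1a* of the 3 mϕ arrays, 6.27, and lies within the range of CD103-CD11b- cells and below all arrays of the other DC subsets.

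*Serpinb8*, which inhibits the proprotein convertase furin in vitro, had log2 signals of 7.91, 8.30 and 7.68 in mϕ. It was at 5.60, 6.04 and 5.54 in CD103+CD11b- cells, at 4.95, 5.26 and 5.42 in CD103-CD11b- cells, at 4.49, 4.63 and 4.84 in CD103-CD11b+ cells and at 4.34, 4.30 and 4.04 in CD103+CD11b+ cells. No population overlapped with another. In mϕ it was higher than in CD103+CD11b+ cells by 3.74 (SE 0.18, adjusted p = 8.3e-10), than in CD103-CD11b+ cells by 3.31, than in CD103-CD11b- cells by 2.75 and than in CD103+CD11b- cells by 2.24. The range of its population means was larger than that of 99.2% of all genes.

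Among the DC subsets, *Serpinb8* was lower in CD103+CD11b+ than in CD103+CD11b- cells (log2 difference -1.50, SE 0.14, adjusted p = 3.3e-05). It was also lower in CD103-CD11b+ than in CD103+CD11b- cells (-1.07, SE 0.14, adjusted p = 4.1e-04), which no longer passed without CD103+CD11b- replicate 2 (-0.91) or CD103-CD11b+ replicate 1 (-0.99). Among these 3 subsets, the 18 mϕ markers were lowest where *Serpinb8* was highest. Their mean was 5.60 to 5.69 in CD103+CD11b- cells, 6.08 to 6.35 in CD103+CD11b+ cells and 7.01 to 7.40 in CD103-CD11b+ cells. In CD103-CD11b- cells the marker mean was 5.96 to 6.96, and in mϕ, where *Serpinb8* was also highest, 10.38 to 10.56. The marker list holds *Csf1r* and *Cx3cr1*, which the paper reports as more highly expressed by CD103-CD11b+ DCs. The marker mean therefore does not stand for mϕ RNA alone. The part of mϕ RNA in the *Serpinb8* signal of the DC subsets was not tested. *Serpinb8* was 0.98 higher in CD103-CD11b- than in CD103+CD11b+ cells (limma, adjusted p = 0.00230), just under the required size. The difference passed without CD103+CD11b+ replicate 1 (1.04) or 2 (1.02) or CD103-CD11b- replicate 1 (1.11), and with array weights (1.07). *Furin* lay between 7.32 and 8.02 on all arrays and passed in no comparison, although its unadjusted p in limma was under 0.05 in 6 of the 10. Its means ran from 7.35 in CD103-CD11b- cells to 7.81 in mϕ.

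*Serpinb2*, which encodes plasminogen activator inhibitor 2, had log2 signals between 4.33 and 5.97 on all arrays. Its means were 5.53 ± 0.51 (SD, n = 3) in CD103-CD11b+ cells, 5.51 ± 0.18 in CD103+CD11b- cells, 5.31 ± 0.40 in CD103-CD11b- cells, 5.22 ± 0.11 in CD103+CD11b+ cells and 4.62 ± 0.25 in mϕ. The DC subsets overlapped and the mϕ arrays, at 4.33 to 4.78, lay below all of them. Differences of mϕ from the DC subsets were -0.91 to -0.60, with adjusted p between 0.00992 and 0.0869, and none was large enough to pass. Against CD103-CD11b+ cells it was -0.91 with all arrays and passed at -1.19 without CD103-CD11b+ replicate 2.

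The plasminogen activation genes around it were not flat. Of 21 genes of granule serine proteases and plasminogen activation, only *Plau*, the urokinase that *Serpinb2* inhibits, and *Plaur*, its receptor, passed in any comparison. In limma, 11 of the 21 had an unadjusted p under 0.05 in at least 1 comparison. *Plau* had a mean log2 signal of 8.25 in CD103+CD11b+ cells, 7.88 in CD103-CD11b+ cells, 5.99 in CD103-CD11b- cells, 5.58 in CD103+CD11b- cells and 9.12 in mϕ. It was 2.67 higher in CD103+CD11b+ than in CD103+CD11b- cells (SE 0.20, adjusted p = 5.1e-06). *Plaur* was 3.63 higher in CD103-CD11b+ than in CD103+CD11b- cells (SE 0.17, adjusted p = 1.5e-07) and lower in CD103+CD11b+ than in CD103-CD11b+ cells (log2 difference -1.17). *Plat*, the tissue-type activator, stayed between 3.57 and 4.51.

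**Figure D3:**
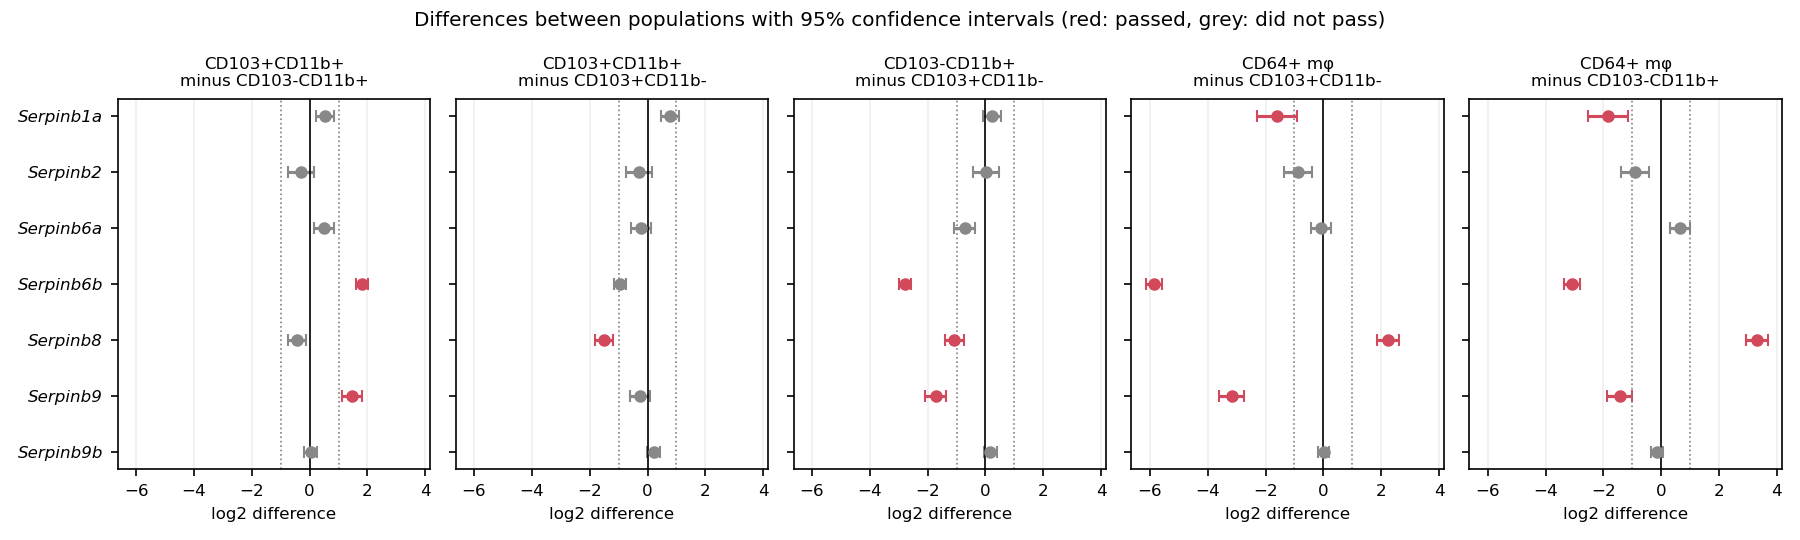
Log2 differences (horizontal axes) of the 7 *Serpinb* genes in 5 of the 10 comparisons, with 95% confidence intervals; red points passed, grey points did not, and dotted lines mark a log2 difference of 1 in either direction. *Serpinb6b* at 1.82 and *Serpinb9* at 1.46 are the genes that passed between CD103+CD11b+ and CD103-CD11b+ cells, and *Serpinb8* stands on the opposite side from *Serpinb6b* in both comparisons with mϕ.

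The number of the 7 genes that passed is set here beside the share of all 19938 genes that passed in limma in the same comparison. In CD103+CD11b+ against CD103-CD11b+ cells, *Serpinb6b* and *Serpinb9* were higher, 2 of 7, and 0 were lower, while 0.231% of all genes were higher and 0.306% lower. Set against CD103+CD11b- cells, 1 of 7 was lower in CD103+CD11b+ cells, *Serpinb8* (all genes: 1.95% higher, 1.32% lower). In CD103-CD11b+ cells 3 of 7 were lower than in CD103+CD11b- cells, *Serpinb6b*, *Serpinb8* and *Serpinb9* (2.02% higher, 1.3% lower). CD103-CD11b- cells had *Serpinb6b* and *Serpinb9*, 2 of 7, lower than CD103+CD11b+ cells (0.908% higher, 1.02% lower) and than CD103+CD11b- cells (1.61% higher, 1.05% lower). They differed from CD103-CD11b+ cells in 0 of 7 (0.356% higher, 0.451% lower), with an unadjusted p under 0.05 for 2 of 7 in limma. The *t*-test that the study's methods give in general for a pair of groups also gave 2.

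In mϕ, *Serpinb8* was the 1 gene of 7 that was higher in each of the 4 comparisons. *Serpinb1a*, *Serpinb6b* and *Serpinb9*, 3 of 7, were lower than in CD103+CD11b+ cells (all genes: 3.34% higher, 2.34% lower), CD103+CD11b- cells (4.04% higher, 2.99% lower) and CD103-CD11b+ cells (3.02% higher, 2.16% lower). Against CD103-CD11b- cells, *Serpinb1a* and *Serpinb6b* were lower, 2 of 7 (3.73% higher, 2.57% lower). The median difference of the 7 genes was -0.91 in mϕ against CD103-CD11b+ cells, beside -0.02 over all genes, and 0.50 in CD103+CD11b+ against CD103-CD11b+ cells, beside -0.01. With 7 genes chosen by name, these shares are a description.

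Whether the CD103-linked difference depended on CD11b was asked with an interaction term over the 4 DC subsets. *Serpinb6b* passed, as 1 of 7 genes with a negative term (all genes: 1.08% positive, 0.893% negative): the difference of CD103+ from CD103- DCs was smaller among CD11b+ than among CD11b- subsets by 1.19 log2 units (term -1.19, SE 0.19, adjusted p = 0.00128). The terms of *Serpinb9* (-0.94, adjusted p = 0.0950) and *Serpinb8* (-0.94, adjusted p = 0.0441) did not pass. Without each population's most pancreas-rich array, the term of *Serpinb6b* was -1.09 with an adjusted p of 0.0127 and no longer passed, and it did not pass limma's treat against a log2 difference of 1.

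Across the 15 arrays *Serpinb6b* and *Serpinb9* rose and fell together, with a Pearson's r of 0.945. The points share their populations, and with 5 groups of 3 arrays this describes mainly the population means. The r of *Serpinb6b* with *Itgae*, a gene used in the sort through its protein, was 0.975, the sixth highest of any gene with *Serpinb6b*. That of *Serpinb9* with *Itgae* was 0.898. The relation did not hold in the same order between the CD103- subsets: *Itgae* was higher in CD103-CD11b- cells, at 8.76 ± 0.18 (SD, n = 3), than in CD103-CD11b+ cells, at 7.84 ± 0.42, while *Serpinb6b* was at 7.71 ± 0.32 and 7.96 ± 0.12.

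**Figure D4:**
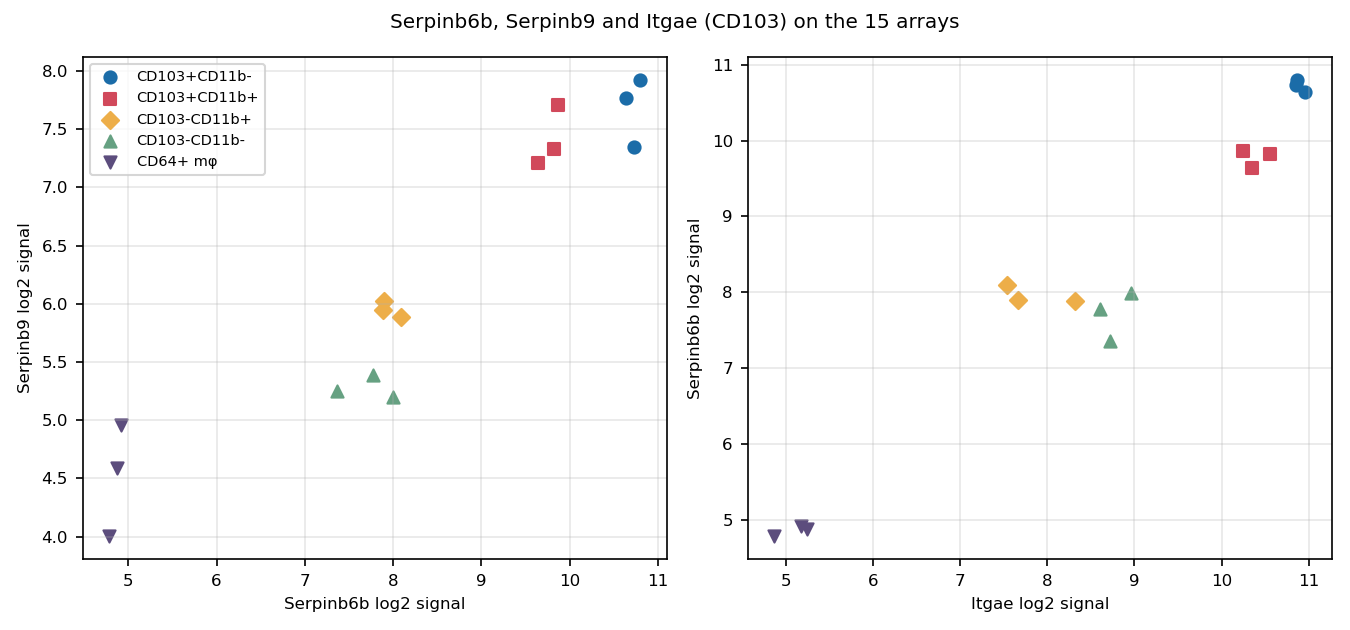
Log2 signal of *Serpinb9* against that of *Serpinb6b* (left) and of *Serpinb6b* against that of *Itgae* (right), with 1 point per array and a colour and shape per population. The CD103+ subsets lie at the upper right and mϕ at the lower left of both panels, and on the right the CD103- subsets stand in one order on *Itgae* and overlap on *Serpinb6b*.

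The genes whose pattern was most like that of each gene were found by Pearson's r over the 15 arrays. For *Serpinb6b* they were *Qpct* (0.988), which encodes glutaminyl cyclase, *Wdr1* (0.986), an actin disassembly factor, and *Prkd3* (0.981), a protein kinase. For *Serpinb9* they were *Pianp* (0.957), *Tbc1d9* (0.95) and *Tpm2* (0.947), a tropomyosin. *Serpinb8* was most like *Galc* (0.983), a lysosomal galactosylceramidase, *Rcbtb2* (0.979) and *Hes1* (0.971), a Notch target. *Serpinb1a* was most like *Mob3b* (0.965), *Stk4* (0.951) and *Baz2b* (0.943). For the 3 genes that passed nowhere the highest r was lower, at 0.892 with *Snord15a* for *Serpinb2*, 0.870 with *Glod5* for *Serpinb6a* and 0.862 with *Grhl2* for *Serpinb9b*.

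Most of the wider clade had low signals. The *Serpinb* genes lie in a cluster of 12 on chromosome 1, with *Serpinb2* and *Serpinb8*, and one of 16 on chromosome 13, with the other 5 genes, and 17 further clade B genes had a probeset of their own. Of these, 16 had log2 signals between 2.60 and 4.51 on all arrays, and 0 of the 16 passed in any of the 10 comparisons (3 had an unadjusted p under 0.05 in at least 1, limma). All 16 lay below the median gene of every array, at 5.00 or more, so the lack of a pass says little about them. The share of all genes that passed in any comparison was not taken. The exception among the 17 was *Serpinb10*, which encodes bomapin, a serpin of haematopoietic cells, and which lies between *Serpinb2* and *Serpinb8*.

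*Serpinb10* had log2 signals of 6.39, 6.69 and 6.85 in CD103-CD11b+ cells, 5.66, 5.72 and 6.46 in CD103-CD11b- cells and 4.96, 5.82 and 6.35 in CD103+CD11b+ cells. It was at 3.79, 4.50 and 3.80 in CD103+CD11b- cells and at 3.48, 3.53 and 3.22 in mϕ. The last 2 populations lay below all arrays of the first 3, in an order that differed from that of both neighbours. It was 2.62 log2 units higher in CD103-CD11b+ than in CD103+CD11b- cells (SE 0.30, adjusted p = 1.4e-04), where *Serpinb8* was lower, and lower in mϕ than in CD103-CD11b+ cells (log2 difference -3.23), where *Serpinb8* was higher.

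**Figure D5:**
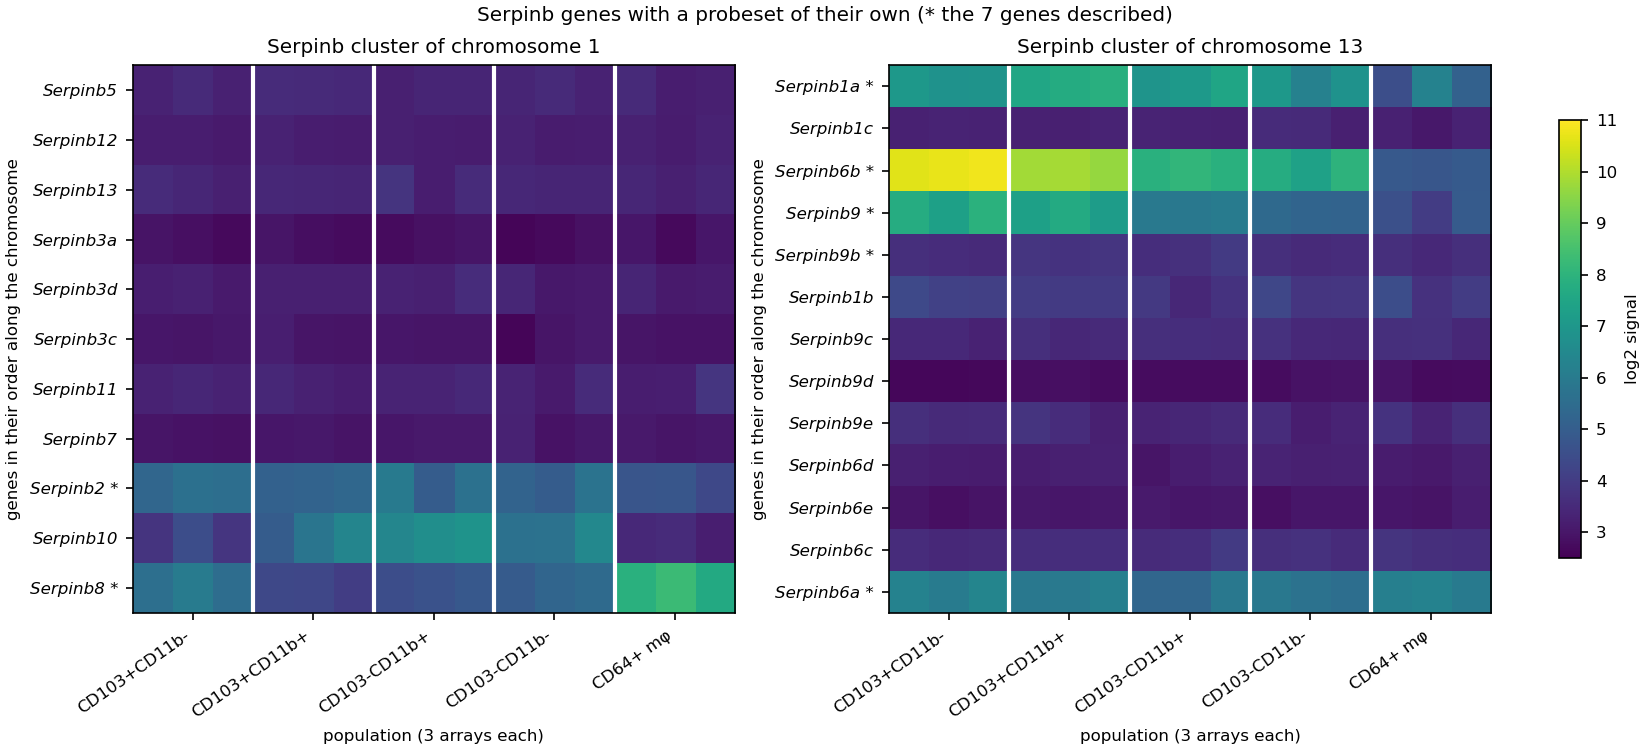
Log2 signal (colour scale) of the 24 *Serpinb* genes with a probeset of their own, in rows by their order along chromosome 1 (left) and chromosome 13 (right), on the 15 arrays in columns by population; asterisks mark the 7 genes described. Colours are to be compared within a row, as probesets differ: *Serpinb6b*, *Serpinb9*, *Serpinb8*, *Serpinb1a* and *Serpinb10* change along their rows, and most other rows keep 1 shade.

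Of 12 serpins of other clades, 0 passed in any comparison, and 4 had an unadjusted p under 0.05 in at least 1 (limma). Of 18 cystatins and other non-serpin inhibitors, 7 passed in at least 1: *Wfdc17*, *Timp2*, *Spint2*, *Slpi*, *Cst3*, *Cstb* and *Stfa2*. The shares of all genes given above are for single comparisons, so none stands beside these counts or the earlier counts over all comparisons. *Wfdc17*, a whey acidic protein family member, was 4.14 higher in CD103-CD11b+ than in CD103+CD11b- cells and 4.99 higher in mϕ than in CD103+CD11b- cells. *Spint2*, a Kunitz inhibitor of membrane serine proteases, was lower in mϕ than in the DC subsets by log2 differences between -1.73 and -1.06, and *Timp2*, a metalloproteinase inhibitor, was 1.41 to 1.87 higher there. *Stfa2*, a stefin that inhibits cathepsins, was lower in CD103+CD11b+ than in CD103+CD11b- cells (-1.15, adjusted p = 1.4e-04).

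Lysosomal and cytosolic proteases, a list of 19 cathepsins, legumain, caspases and calpains, had their lowest mean log2 signal in CD103+CD11b- cells, at 7.13 to 7.24 on the 3 arrays, where *Serpinb6b* was highest, and their highest in mϕ, at 8.81 to 8.92. Compared with CD103+CD11b- cells, 6 of 19 were higher in CD103+CD11b+ cells, 8 in CD103-CD11b+ cells, 5 in CD103-CD11b- cells and 13 in mϕ, and 0 were lower. Of all genes, 1.95%, 2.02%, 1.61% and 4.04% were higher in these comparisons, and 1.32%, 1.3%, 1.05% and 2.99% lower. The 5 higher in CD103-CD11b- cells were *Ctse*, *Ctsd*, *Casp4*, *Lgmn* and *Ctsc*. Between CD103+CD11b+ and CD103-CD11b+ cells 0 of the 19 passed, with an unadjusted p under 0.05 for 3 (limma). Of all genes, 0.231% were higher and 0.306% lower there. *Lgmn*, which encodes legumain, was 4.97 higher in mϕ than in CD103+CD11b- cells (SE 0.14, adjusted p = 2.7e-12), *Ctsd*, cathepsin D, 3.49 higher and *Ctsl*, cathepsin L, 3.04 higher. *Ctse*, cathepsin E, was highest in CD103-CD11b- cells at a mean of 8.88, and 2.43 higher there than in CD103+CD11b+ cells (adjusted p = 7.8e-05).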

How the data were processed

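RNA of sorted cells was amplified (Ovation Pico WTA V2) and hybridized to GeneChip Mouse Gene 1.0 ST arrays, 3 for each of 5 populations. Per the labels tissue was digested with collagenase VIII at 0.8 mg/ml. The values deposited by the authors are log2 signals after RMA, which corrects background, quantile normalizes the arrays and summarizes probesets, and so removes differences in total RNA. Of 35556 probesets, 21789 had 1 gene symbol, and the one with the highest mean represented each of 19938 genes. Probe sequences were not used here, so cross-hybridization between close paralogues could not be examined.

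Differences were fitted with limma 3.58.1 (R 4.3.3; lmFit and eBayes), on 9 arrays for the 3 comparisons that leave out mϕ and the CD103-CD11b- subset, and on all 15 for the 7 others and the interaction. A pass needed both an adjusted p under 0.01 and a log2 difference beyond 1 in size, the limits in the paper's legend for its array figure. The paper names Student's *t*-test as its general test for a pair of groups and does not state it for the arrays. Tests were tried on simulated data. The 7 genes and the 12 lists were chosen with earlier results of these data known. Named genes are the 7, the 3 most like each, the 3 sort genes and, per list, those of the largest difference that passed. For *Serpinb2* and *Serpinb9b* only the most alike gene is named. The granzymes, *Elane*, *Prtn3*, *Ctsg*, *Furin*, *Plat*, *Serpinb10* and the single epithelial genes were named after their values were seen. Alternatives changed the probeset, centring, dim genes, spread estimate, thresholds, test, replicate block and arrays used. Promoters are RefSeq's (GRCm38.p6). Tables and figures used Python 3.11.15, pandas 2.3.3 and matplotlib 3.10.9.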

Additional observations from a re-analysis of the deposited data

Results flagged for a closer look

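1 result differed between groups under the same contrast by a test of that difference. For *Serpinb6b* the log2 difference of CD103+ from CD103- DCs was 1.82 between the CD11b+ subsets and 3.01 between the CD11b- subsets, all 3 arrays of each CD103+ subset lay above all 3 of its CD103- counterpart, and the interaction term was -1.19 (limma, adjusted p = 0.00128). Without each population's most pancreas-rich array the term was -1.09 with an adjusted p of 0.0127 and no longer passed, nor did it pass limma's treat against a log2 difference of 1. In CD103-CD11b- DCs the mean of 10 B cell and plasma cell genes was 8.10 to 8.70, against at most 8.0 on any other array, and the part of such RNA in the term was not tested.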

How the results depend on the processing

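Of 25 calls of the 7 genes between populations, 25 were kept with the mean of all probesets, arrays centred on their medians, dim genes left out, an intensity trend, array weights, an adjusted p under 0.05, the replicate block and without each population's most pancreas-rich array. With only the arrays of the populations compared, 16 of 19 calls from the 15-array fit were kept, and with all 15 arrays 6 of 6 from the 9-array fit. Centring added *Serpinb6b* in CD103+CD11b+ against CD103+CD11b- DCs, giving 2 genes there in place of 1. Array weights added *Serpinb8* in CD103-CD11b- against CD103+CD11b+ DCs (1.07), and leaving out the pancreas-rich arrays added *Serpinb6a* in CD103-CD11b+ against CD103+CD11b- DCs (-1.02). Limma's treat against a log2 difference of 1 kept 15 of 25, with 1 gene left in CD103+CD11b+ against CD103-CD11b+ DCs, 0 in CD103+CD11b+ against CD103+CD11b- DCs, 1 in CD103-CD11b+ against CD103+CD11b- DCs, 1 in CD103-CD11b- against CD103+CD11b+ DCs, 2 in mϕ against CD103-CD11b+ DCs and 0 in the interaction. It also left 3 of 4 in mϕ against CD103+CD11b+ and against CD103+CD11b- DCs and 2 of 3 in mϕ against CD103-CD11b- DCs. The interaction also had 0 without the most pancreas-rich arrays. The methods' t-test on each pair of populations, adjusted over all genes, kept 5 of 25 at 0.01: 2 genes in mϕ against CD103+CD11b+ DCs, 1 each in mϕ against CD103+CD11b- and CD103-CD11b+ DCs and in CD103-CD11b+ against CD103+CD11b- DCs, and 0 in the others. At the paper's general threshold of 0.05, the t-test gave 3 to 6 of 7 genes unadjusted in 9 comparisons and 2 in CD103-CD11b- against CD103-CD11b+ DCs, and 0 to 3 after adjustment. Leaving out each array in turn lost 2 of the 25 and added 2, and the counts stayed at 2 to 3 genes for CD103-CD11b+ against CD103+CD11b-, CD103-CD11b- against CD103+CD11b+ and mϕ against CD103-CD11b- DCs and at 4 to 5 for mϕ against CD103-CD11b+ DCs. Same-numbered arrays deviated together, with r over 0.1, in 18 of 30 pairs (mean 0.12, against -0.06 between other numbers), and among the 3 DC subsets of the 9-array fit in 7 of 9 (mean 0.18, against -0.09). The numbers would have been taken as pairs only with every r over 0.1, which neither set met; with the replicate block the counts were 2 genes in CD103+CD11b+ against CD103-CD11b+ DCs and 3 in CD103-CD11b+ against CD103+CD11b- DCs. Centring moved the median of all genes by at most 0.07.

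Only differences near 0 that had not passed changed sign. With centring, *Serpinb2* was at -0.048 in CD103-CD11b+ against CD103+CD11b- DCs and *Serpinb9b* at -0.051 in mϕ against CD103+CD11b- DCs. In CD103-CD11b- against CD103+CD11b- DCs, *Serpinb9b* was at 0.011 with array weights and 0.024 without the pancreatic-rich arrays, which also put *Serpinb2* at 0.030 there and at 0.0031 against CD103-CD11b+ DCs. Leaving out each array in turn gave *Serpinb9b* -0.031 to 0.14 in CD103+CD11b+ against CD103-CD11b+, -0.048 to 0.033 in CD103-CD11b- against CD103+CD11b-, -0.029 to 0.064 in mϕ against CD103+CD11b- and -0.012 to 0.071 in mϕ against CD103-CD11b- DCs. It gave *Serpinb2* -0.19 to 0.30 in CD103-CD11b+ against CD103+CD11b- and -0.14 to 0.25 in CD103-CD11b- against CD103+CD11b+ DCs, *Serpinb1a* -0.38 to 0.023 in CD103-CD11b- against CD103+CD11b- DCs, and *Serpinb6a* -0.18 to 0.00045 in mϕ against CD103+CD11b- DCs. The cause of these changes was not tested. With 3 arrays per population, and no detection call in the values used, the precision of signals near or below the median gene is limited.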
